A study of Homo sapiens with 15 samples.

Results

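The neurofilament and BEX genes are 6 genes best known from nerve cells that were singled out here in a lung cancer cell line because polyamides, synthetic DNA-binding molecules, had raised some of them. The members were NEFL, NEFM and NEFH, which encode the light, medium and heavy neurofilament chains, and BEX1, BEX2 and BEX4 of the brain expressed X-linked family. All probe sets whose annotated symbol is 1 of these 6 were taken, which gave 10 of the 54675 probe sets on the array and 6 of the 19775 genes that have a probe set of their own. NEFL had 3 probe sets, NEFM and NEFH had 2 each, and each BEX gene had 1. The genes were chosen by their signals in the polyamide arrays, so the differences between polyamide arrays and the dexamethasone arrays are given below as a description, with no test of the members.

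RNA was measured on 15 Affymetrix arrays from A549, an epithelial line from a human lung adenocarcinoma, grown in F12K medium with serum stripped of steroids by charcoal. There were 5 groups of 3 arrays. Match polyamide for 48 hours with dexamethasone for 6 hours, mismatch polyamide for 48 hours with dexamethasone for 6 hours, and mifepristone for 48 hours with dexamethasone for 6 hours were the 3 compound groups. Dexamethasone alone for 6 hours and non-treated cells were the other groups. Dexamethasone is a synthetic glucocorticoid, and mifepristone is an antagonist of its receptor. Polyamides of this kind bind the minor groove of DNA, and the match compound was directed to the glucocorticoid response element, the sequence that the activated receptor binds. Every compound group also received dexamethasone, so no array shows a polyamide or mifepristone without it, and no label names a vehicle. The sources used here give no doses. Nothing says that arrays of a group came from separate cultures, so the p-values cover the spread among these arrays and that spread may be technical.

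Neurofilaments are the intermediate filaments of axons and set their calibre. The light chain NEFL is needed for assembly, the medium and heavy chains NEFM and NEFH join it and carry long side arms, and 2 further proteins, alpha-internexin (INA) and peripherin (PRPH), can be built into the same filaments. The BEX genes lie together on the long arm of the X chromosome beside the related TCEAL genes and encode small proteins first described in brain, of which BEX1 and BEX3 bind the neurotrophin receptor p75. BEX2 has been linked to survival of breast cancer cells and BEX4 to microtubules. In RefSeq on GRCh38.p14, BEX1 spans 103062651 to 103064171, BEX4 103215092 to 103217246 and BEX2 103309346 to 103310990 on the X chromosome.

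The sequences just before the starts of the BEX genes are shown so that BEX2 and BEX4, whose values with the match polyamide differ, can be set side by side. Each is the 250 bases before a RefSeq start on GRCh38.p14, written 5′ to 3′ on the strand of the gene, with the E-box letters CACGTG in capitals. They lie at chrX:103064172-103064421 (minus strand) for BEX1, at chrX:103310991-103311240 (minus strand) for BEX2 and at chrX:103214858-103215107 (plus strand) for BEX4, where the downstream of its 2 annotated starts was used. The search motif was chosen after the sequences were seen.
BEX1: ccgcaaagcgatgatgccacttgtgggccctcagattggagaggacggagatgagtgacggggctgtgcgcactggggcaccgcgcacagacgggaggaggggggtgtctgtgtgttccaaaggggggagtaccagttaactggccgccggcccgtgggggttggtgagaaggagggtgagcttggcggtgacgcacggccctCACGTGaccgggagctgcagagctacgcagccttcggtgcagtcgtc
BEX2: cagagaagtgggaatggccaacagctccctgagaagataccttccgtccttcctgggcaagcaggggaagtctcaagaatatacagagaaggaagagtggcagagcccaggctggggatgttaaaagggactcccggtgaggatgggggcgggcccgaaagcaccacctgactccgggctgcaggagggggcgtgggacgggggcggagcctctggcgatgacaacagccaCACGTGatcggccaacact
BEX4: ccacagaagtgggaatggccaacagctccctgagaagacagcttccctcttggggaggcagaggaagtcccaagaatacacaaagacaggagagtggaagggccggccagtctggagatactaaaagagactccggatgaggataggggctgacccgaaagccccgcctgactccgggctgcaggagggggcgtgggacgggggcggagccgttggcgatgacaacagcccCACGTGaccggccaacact
The BEX2 and BEX4 stretches were identical at 85.1% of 255 aligned positions, against 49.2% for BEX1 and BEX2 and 50.3% for BEX1 and BEX4. CACGTG stood once in each, 19 bases before the start in BEX2 and in BEX4 and 47 bases before it in BEX1. The same letters, which read alike on both strands, occur in 6.34% of all 35116 such stretches in the RefSeq table. TGTTCT, the hexamer found in glucocorticoid response elements, was in none of the 3 on either strand, and occurs in 12.4% of all stretches. TATAAA, a core promoter element, was in none of them either, and occurs in 10.7% of all stretches. CpG pairs numbered 19 in BEX1, 11 in BEX2 and 12 in BEX4, against a median of 11 over all stretches. These are matches of letters and show no binding.

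Values below are signals, the brightness of a probe set on a linear scale, after all arrays were given the same distribution by quantile normalization. The 40th percentile of that distribution was a signal of 12.0, the median 18.2 and the 75th percentile 90.7. A probe set was tested where at least 3 of the 15 arrays lay above their own 40th percentile. Differences are on the log2(signal + 16) scale, which understates the change of low signals, and SE is the standard error from limma. Signals of different probe sets are not compared, since a signal depends on the probes as well as on the amount of RNA. In bulk RNA, fewer cells with a gene active and less of its RNA per cell cannot be told apart.

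None of the 10 epithelial marker genes checked had a median under the 40th percentile of the arrays, though CLDN4 was close (percentile 43.7, lowest 12.8). Their summed signals were 34291 to 36319 in match arrays, 38255 to 39331 in mismatch arrays, 39248 to 40024 in mifepristone arrays, 42295 to 42837 in dexamethasone arrays and 39787 to 40752 in non-treated arrays. Of 8 neuron markers, DCX, MAP2 and STMN2 had medians under that percentile. The others were over it, TUBB3 at percentile 98.7, SYT1 at 82.0, SNAP25 at 81.7, RBFOX3 at 77.7 and ELAVL4 at 47.5. The summed neuron signal was 2313 to 2809 in match, 2629 to 3075 in mismatch, 2860 to 3064 in mifepristone, 3161 to 3274 in dexamethasone and 3207 to 3397 in non-treated arrays. The neuron sum was thus lower in both polyamide groups than in dexamethasone arrays, while NEFL and BEX2 were higher there. Such a sum is weighted to its brightest markers. Gene by gene, 6 neuron markers were tested against dexamethasone. At an adjusted p under 0.05 limma called 4 lower and 0 higher with match, and the same numbers with mismatch. It called 39% and 29.7% of all genes. Fibroblast marker sums were 283 to 328 in match, 208 to 269.6 in mismatch, 169.6 to 228 in mifepristone, 143 to 198 in dexamethasone and 192 to 211 in non-treated arrays, with COL1A2, LUM and PDGFRB under the 40th percentile. Leukocyte sums over 5 genes were 118 to 146 in match, 115 to 124 in mismatch, 103 to 115 in mifepristone, 61.8 to 97.6 in dexamethasone and 82.5 to 110.9 in non-treated arrays, with PTPRC under it. Some markers of each cell type had medians over the 40th percentile, so this cut does not tell the cell types apart. The part of these sums in the results was not tested.

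The name given to the set, genes raised by polyamides, fitted NEFL and BEX2 with both polyamides and BEX4 with the mismatch polyamide alone. NEFM and NEFH signals were near background in every group, where 1 NEFH probe set, 33767_at, was also higher in both polyamide groups than in dexamethasone arrays, and BEX1 signals in polyamide arrays overlapped those of dexamethasone arrays. Of the 10 member probe sets 7 passed the filter on low signals, 1 of them (the NEFL probe set 221801_x_at) only through the polyamide arrays, as 2 of its 9 other arrays were above the 40th percentile. Among those 7, all match arrays lay above all dexamethasone arrays for 4, as they did for 20.9% of all 39778 probe sets tested. All mismatch arrays lay above all dexamethasone arrays for 5, as they did for 19.2% of all probe sets. These contrasts chose the genes, so the counts are no evidence of their own.

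**Figure D1:**
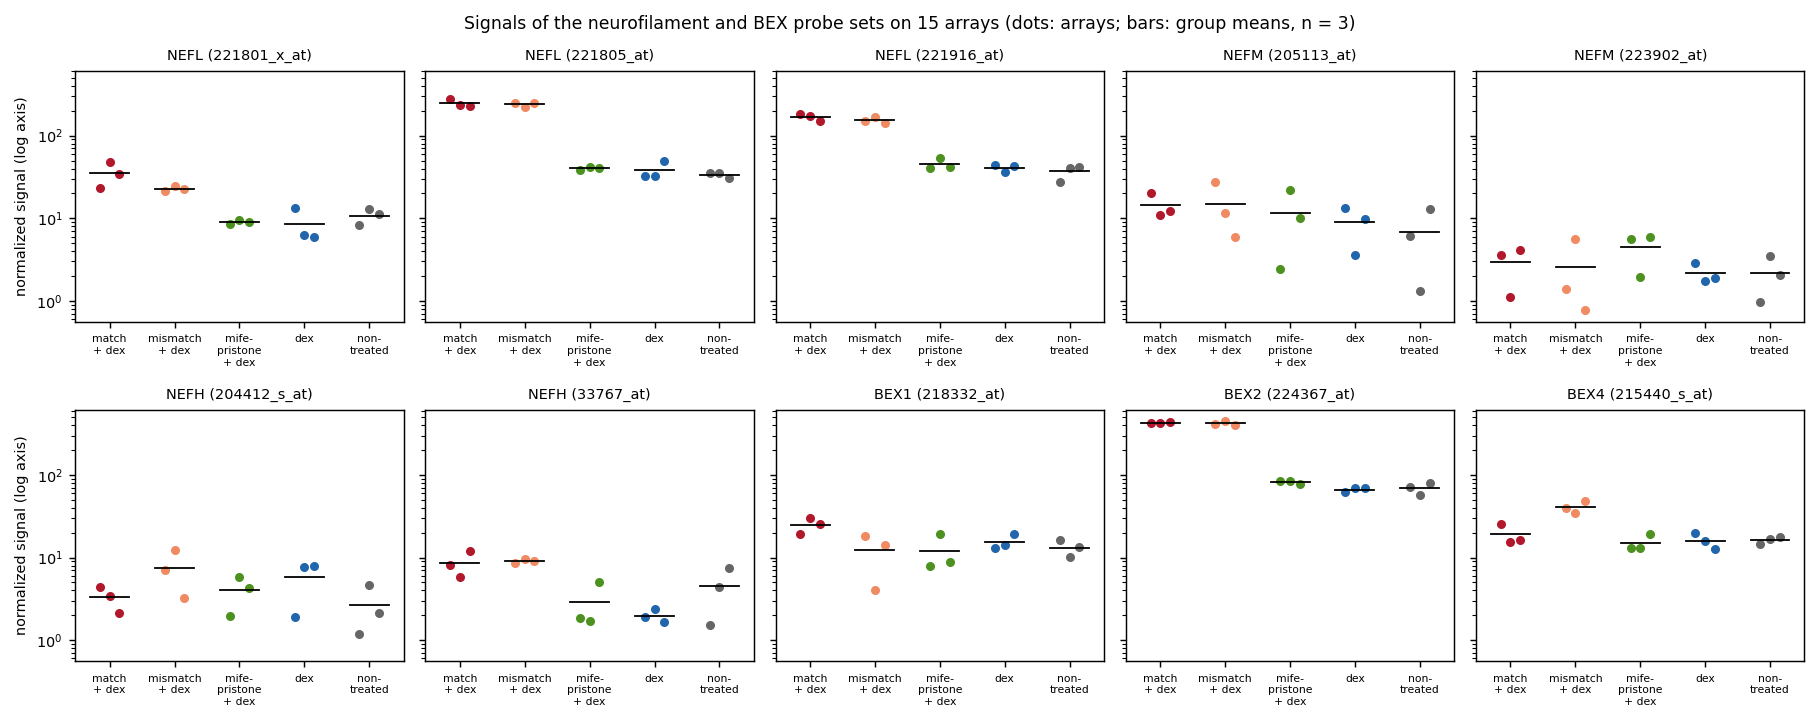
Quantile-normalized signal (log axis) of the member probe sets in each of the 15 arrays, 1 point per array and a bar at the mean of the 3, by group. Match and mismatch points of NEFL (221805_at) and BEX2 lie far above the other 3 groups, while those of BEX1 overlap them and those of BEX4 stand apart with mismatch alone.

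NEFL, the light chain, lies at 24950955 to 24956612 of chromosome 8 (GRCh38.p14) and was read by 3 probe sets. The probe set 221805_at gave signals of 274, 237 and 229.7 in match arrays, 248, 225 and 246 in mismatch arrays, 38.7, 41.8 and 40.4 in mifepristone arrays, 32.1, 32.3 and 49.9 in dexamethasone arrays and 34.9, 35.7 and 30.5 in non-treated arrays. All 6 polyamide arrays lay above all 9 others, and the match and mismatch arrays overlapped each other. The mean was 247 ± 23.9 in match and 239.9 ± 12.7 in mismatch arrays, against 38.1 ± 10.3 in dexamethasone arrays (SD, n = 3 each). Those means are 6.49 and 6.30 times the dexamethasone mean, and the log2 differences were 2.29 (SE 0.13) for match and 2.26 (SE 0.13) for mismatch. Both comparisons use the same dexamethasone arrays. Within each array NEFL 221805_at stood at percentile 85.5 to 87.5 with a polyamide and 60.2 to 67.5 without.

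The second NEFL probe set, 221916_at, gave 183, 171 and 151 in match arrays, 152, 168 and 143 in mismatch arrays, 40.9, 53.8 and 41.5 in mifepristone arrays, 43.9, 36.5 and 42.5 in dexamethasone arrays and 27.8, 41.0 and 41.9 in non-treated arrays. Again the 6 polyamide arrays lay above the other 9. Mean signals were 4.11 times that of dexamethasone arrays for match and 3.76 times for mismatch, with log2 differences of 1.69 (SE 0.14) and 1.58 (SE 0.14). The third, 221801_x_at, whose suffix marks probes that may also pair with other transcripts, gave 23.4, 47.8 and 34.6 in match, 21.2, 24.4 and 22.5 in mismatch, 8.58, 9.62 and 8.98 in mifepristone, 13.4, 6.20 and 5.91 in dexamethasone and 8.20, 12.8 and 11.4 in non-treated arrays. Its polyamide arrays also lay above the rest. The log2 differences from dexamethasone were 1.05 (SE 0.20) with match and 0.67 (SE 0.20) with mismatch. All 3 NEFL probe sets thus had their polyamide arrays highest, with differences of unlike size.

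The match and mismatch arrays of NEFL overlapped on every probe set. On 221805_at the difference of match minus mismatch was 0.04 with a 95% interval of -0.24 to 0.31, on 221916_at 0.11 with -0.18 to 0.41, and on 221801_x_at 0.38 with -0.03 to 0.79. The interval of 221916_at thus allows match to be higher by up to 0.41 or lower by up to 0.18 on the log2 scale. Whether the 2 compounds act alike on NEFL cannot be read from this.

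NEFM, the medium chain, lies beside NEFL at 24913761 to 24919093 of chromosome 8 and gave low and scattered signals. Its probe set 205113_at read 20.3, 11.0 and 12.1 in match arrays, 27.2, 11.7 and 5.98 in mismatch arrays, 2.42, 22.3 and 10.2 in mifepristone arrays, 13.5, 3.62 and 9.79 in dexamethasone arrays and 6.08, 1.33 and 12.8 in non-treated arrays. All neighbouring groups overlapped, and 6 of the 15 arrays were above the 40th percentile. The log2 differences from dexamethasone were 0.30 (SE 0.29) for match and 0.27 (SE 0.29) for mismatch, close to 1 standard error. The other NEFM probe set, 223902_at, stayed at or under 5.93 in all arrays and was not tested.

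NEFH, the heavy chain, lies at 29480218 to 29491390 of chromosome 22 and had no tested probe set. Signals on 204412_s_at were 4.37, 3.40 and 2.13 in match, 6.99, 12.3 and 3.23 in mismatch, 1.97, 5.86 and 4.29 in mifepristone, 1.90, 7.72 and 7.93 in dexamethasone and 1.18, 4.67 and 2.14 in non-treated arrays, and the groups overlapped. On 33767_at they were 8.14, 5.78 and 12.1 in match, 8.54, 9.60 and 9.16 in mismatch, 1.87, 1.68 and 5.02 in mifepristone, 1.93, 2.37 and 1.64 in dexamethasone and 1.53, 4.45 and 7.51 in non-treated arrays. The polyamide arrays of 33767_at were all above the dexamethasone arrays but overlapped the non-treated ones, and 1 of the 15 arrays reached the 40th percentile. Fitted without the filter, its log2 differences from dexamethasone were 0.45 (SE 0.14) for match and 0.48 (SE 0.14) for mismatch. Its mean signals were 4.38 times that of dexamethasone arrays with match and 4.60 times with mismatch, a ratio to a dexamethasone mean of 1.98. No NEFM or NEFH probe set gave a difference of the size seen on NEFL 221805_at on the log2(signal + 16) scale, which compresses low signals.

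BEX2 varied little among match arrays and more among non-treated arrays (mean 69.5, SD 11.6). Its probe set 224367_at gave 429, 424 and 436 in match arrays, 414, 446 and 404 in mismatch arrays, 83.9, 85.0 and 78.5 in mifepristone arrays, 61.6, 69.4 and 68.7 in dexamethasone arrays and 71.5, 56.9 and 79.9 in non-treated arrays. All 6 polyamide arrays lay above all 9 others. The mean was 429.6 ± 5.87 in match and 421 ± 22.0 in mismatch arrays, against 66.6 ± 4.33 in dexamethasone arrays (SD, n = 3 each). These are 6.45 and 6.33 times the dexamethasone mean, with log2 differences of 2.43 (SE 0.11) for match and 2.41 (SE 0.11) for mismatch. Match minus mismatch was 0.03, with a 95% interval of -0.19 to 0.25. By the size of its rise BEX2 ranked 17 of 39778 probe sets with match and 4 with mismatch, and NEFL 221805_at ranked 22 and 6. As these ranks come from the contrast that chose the genes, they only place them.

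BEX4 separated the 2 polyamides. Its probe set 215440_s_at gave 25.3, 15.6 and 16.4 in match arrays, 39.9, 34.8 and 48.0 in mismatch arrays, 13.0, 13.0 and 19.4 in mifepristone arrays, 19.6, 15.8 and 12.7 in dexamethasone arrays and 14.6, 16.8 and 17.7 in non-treated arrays. The mismatch arrays lay above all 12 others, while the match arrays overlapped the groups without a polyamide. Mean signals were 19.1 ± 5.37 in match arrays and 40.9 ± 6.70 in mismatch arrays (SD, n = 3 each). Dexamethasone arrays averaged 16.1 and non-treated arrays 16.4, under the array median of 18.2, so BEX4 was dim there. The log2 difference from dexamethasone was 0.13 (SE 0.18) for match and 0.83 (SE 0.18) for mismatch, whose mean was 2.54 times that of dexamethasone arrays. Match minus mismatch was -0.70 (SE 0.18). The polyamide values chose the genes, so this too is a description. Its neighbour BEX2 differed by 0.03 in the same comparison. Any part of the start sequences in these values was not tested.

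BEX1 was dim, and its signals with either polyamide overlapped those of dexamethasone arrays. Its probe set 218332_at gave 19.4, 30.5 and 25.4 in match arrays, 18.3, 4.09 and 14.3 in mismatch arrays, 7.97, 19.1 and 8.90 in mifepristone arrays, 13.0, 14.1 and 19.4 in dexamethasone arrays and 16.2, 10.0 and 13.4 in non-treated arrays. The match arrays lay above the mismatch arrays but overlapped the dexamethasone arrays at 19.4. The log2 difference from dexamethasone was 0.38 (SE 0.22) for match and -0.19 (SE 0.22) for mismatch. Match minus mismatch was 0.57 (SE 0.22), with means of 25.1 ± 5.57 in match and 12.3 ± 7.34 in mismatch arrays (SD, n = 3 each). BEX1 and BEX4 thus stood on opposite sides in that comparison, and BEX2 stood near 0.

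**Figure D2:**
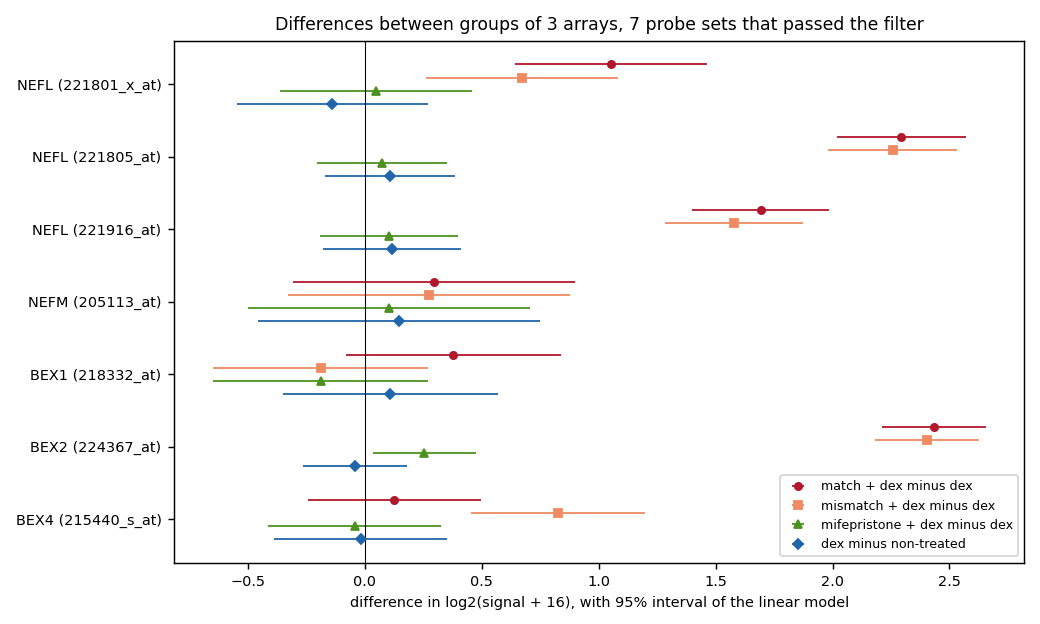
Log2 differences of the 7 tested member probe sets with 95% intervals, for match minus dexamethasone, mismatch minus dexamethasone, mifepristone minus dexamethasone and dexamethasone minus non-treated. NEFL and BEX2 lie far right of 0 with both polyamides, BEX4 (0.83) with mismatch, and every member's interval for dexamethasone minus non-treated includes 0.

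Among the comparisons that hold no polyamide array, dexamethasone minus non-treated and mifepristone minus dexamethasone use the dexamethasone arrays, which also served in the contrasts that chose the genes, so their values are no independent test of the members. NEFL 221801_x_at is left out here because it passed the filter only through polyamide arrays. Of the 6 other tested member probe sets limma called none in either comparison, against 4.84% of all probe sets for dexamethasone minus non-treated and 3.55% for mifepristone minus dexamethasone. At an unadjusted p under 0.05 there was none in dexamethasone minus non-treated, against 14.7% of all probe sets, and 1 (BEX2) in mifepristone minus dexamethasone, against 12.5%.

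In dexamethasone minus non-treated the log2 differences ran from -0.04 on BEX2 to 0.14 on NEFM. For NEFL 221805_at the difference was 0.11 with a 95% interval of -0.17 to 0.38. In mifepristone minus dexamethasone NEFL 221805_at differed by 0.07, with a 95% interval of -0.20 to 0.35. BEX2 had 83.9, 85.0 and 78.5 in mifepristone arrays, all above the 61.6, 69.4 and 68.7 of dexamethasone arrays, a separation seen for 9.25% of all probe sets. Its difference was 0.25 (SE 0.11), with a 95% interval of 0.03 to 0.48. On signals as deposited it was 0.66 and was called, where the median difference of all probe sets was 0.35.

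In mifepristone with dexamethasone against non-treated cells, the group means compared came from neither the polyamide arrays nor those of dexamethasone alone. The normalization, the filter on low signals and the estimate of the spread behind the p-values did use all arrays. The p-values of this comparison are therefore not independent of the arrays that chose the genes. None of the 6 passed the limma test there, where 0.166% of all probe sets did. None had an unadjusted p under 0.05, against 6.66% overall. NEFL 221805_at had all 3 mifepristone arrays above the non-treated arrays, 38.7, 41.8 and 40.4 against 34.9, 35.7 and 30.5, with a difference of 0.18 and a limma adjusted p of 0.874. Such a separation in 1 direction occurred for 6.08% of all probe sets. BEX2 differed by 0.21 with an adjusted p of 0.757, and by 0.64 with an adjusted p of 0.0313 on signals as deposited, where the median of all probe sets was 0.363. NEFL 221916_at was called in that setting as well (0.59, adjusted p 0.0471), against 0.22 and an adjusted p of 0.843 after normalization.

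Across the 15 arrays the signals of NEFL 221805_at and BEX2 followed each other, with a Pearson r of 0.99 on the log2 scale. These 15 points fall into a polyamide cluster and a cluster of the rest, so the value describes that split and carries no test. BEX4 had r of 0.66 with NEFL and 0.65 with BEX2, the pairs of NEFM or BEX1 with another member had r of 0.28 to 0.43 apart from BEX4 with BEX1, and BEX4 with BEX1 had -0.21.

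The genes outside the set with the highest r to NEFL 221805_at over the 15 arrays were TRIAP1 (0.985), CCNG1 (0.984), RASD1 (0.982) and MEST (0.980). For BEX2 they were TRIAP1 (0.987), E2F7 (0.987), RASD1 (0.984) and PPM1D (0.983). These r values too describe the split between polyamide arrays and the rest, and carry no test. RASD1 had mean signals of 364 in match and 382 in mismatch arrays, against 21.6 in mifepristone, 16.7 in dexamethasone and 18.2 in non-treated arrays. TRIAP1 averaged 1485 in match and 1387 in mismatch arrays, against 883 in mifepristone, 905 in dexamethasone and 873 in non-treated arrays. BEX4 was most like DSN1 (0.923), CNIH4 (0.917), HIF1AN (0.907) and ACAT2 (0.906). ACAT2 averaged 825 in match arrays and 1177 in mismatch arrays, against 709 in mifepristone and 747 in dexamethasone arrays, the same order of mismatch over the rest as in BEX4. For the dim BEX1 the nearest was FAN1 (0.864), then LINC02622, PLCD3 and EIF4G1 (0.826), and for NEFM it was PVALB (0.852), then LOC101929154, STK40 and CCDC144A (0.757).

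Alpha-internexin and peripherin, the other neuronal filament proteins, are not members and were tested in every comparison. INA gave signals of 985, 1079 and 1158 in match arrays, 930.4, 993 and 919.8 in mismatch arrays, 319, 357 and 305 in mifepristone arrays, 259.9, 272 and 289.8 in dexamethasone arrays and 361, 352 and 382 in non-treated arrays. INA rose with both polyamides, by 1.91 (SE 0.08, limma adjusted p 3.26e-13) for match and 1.73 (SE 0.08, adjusted p 6.84e-12) for mismatch over dexamethasone. INA also fell with dexamethasone relative to non-treated cells, by 0.40 (SE 0.08, adjusted p 0.00319), and the difference of match minus mismatch was 0.18 (adjusted p 0.152). PRPH gave 112, 111 and 127 in match arrays, 132, 142 and 158 in mismatch arrays, 37.1, 28.8 and 22.8 in mifepristone arrays, 23.0, 46.0 and 26.4 in dexamethasone arrays and 36.6, 25.1 and 27.6 in non-treated arrays. It rose by 1.50 (SE 0.17, adjusted p 7.89e-07) with match and 1.77 (SE 0.17, adjusted p 2.20e-07) with mismatch. Like NEFL and BEX2, PRPH had all 6 polyamide arrays above the other 9, and its difference for dexamethasone minus non-treated was 0.04 (adjusted p 0.959).

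Of the other intermediate filament proteins and the linkers that tie them to the cell, 19 had a tested probe set, INA and PRPH included. With match 5 rose and 6 fell (57.9%), and with mismatch 4 rose and 4 fell (42.1%), against 39% and 29.7% of all 16367 genes. The median difference was -0.04 for match and -0.06 for mismatch, against 0.05 and 0.07 over all genes. KRT19, an epithelial keratin, rose by 0.69 with match (adjusted p 7.94e-08) and by 0.59 with mismatch (adjusted p 1.72e-06). DST, a linker of filaments, fell by 1.03 with match (adjusted p 1.44e-06) and by 1.04 with mismatch (adjusted p 3.08e-06). The keratins KRT7 and KRT8 fell with match, by 0.67 (adjusted p 3.58e-06) and 0.55 (adjusted p 1.27e-06), as did SYNC, by 1.34 (adjusted p 2.20e-07). KRT18 fell by 0.12 with mismatch (adjusted p 0.0174), a difference of 0.047 (adjusted p 0.821) on signals as deposited. On signals as deposited the split was 5 higher and 4 lower for match and 4 and 1 for mismatch. With median centring it was 4 and 2 for mismatch, and with scaling to the trimmed mean 5 and 5 for match.

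**Figure D3:**
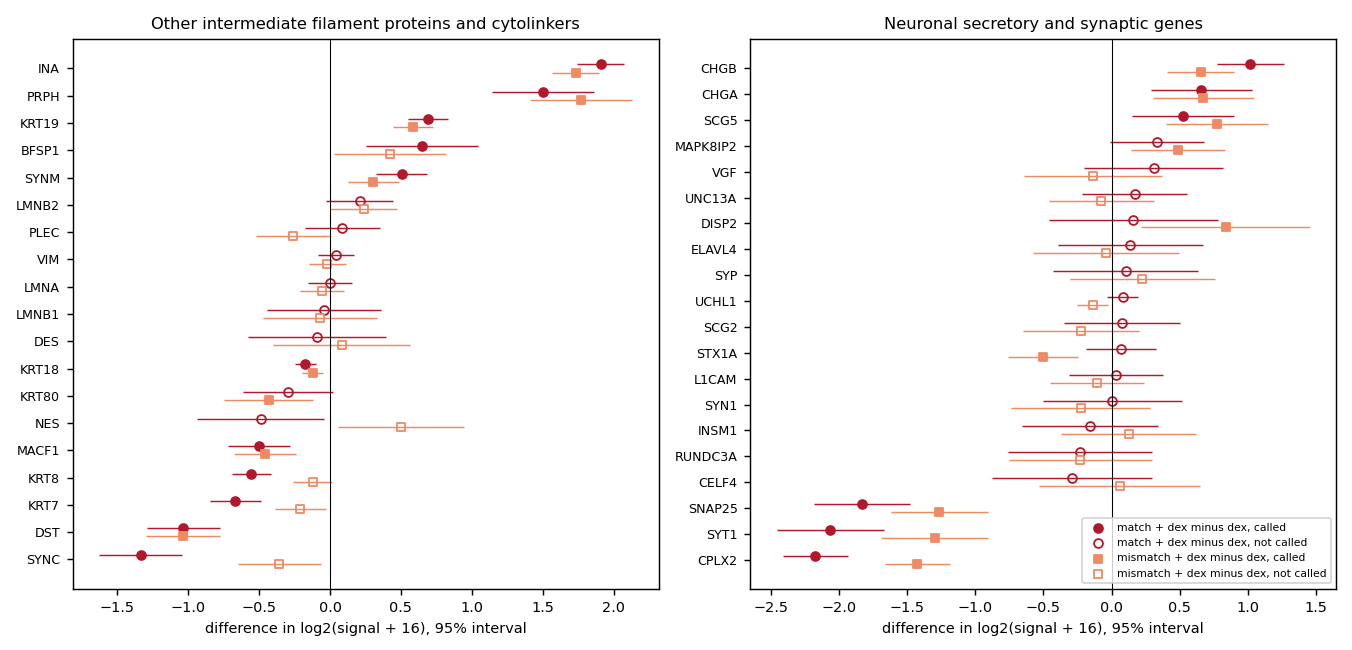
Log2 differences of the genes of the intermediate filament list and of the secretory and synaptic list, for match and mismatch minus dexamethasone, with 95% intervals and filled symbols for called genes. INA (1.91 with match) and PRPH (1.50) stand at the high end of the intermediate filament list, and CPLX2 (-2.17), SYT1 (-2.06) and SNAP25 (-1.83) at the low end of the secretory and synaptic list.

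Of 18 tested genes for neuronal microtubules and growth cones, 2 rose and 4 fell with match (33.3%) and 4 rose and 3 fell with mismatch (38.9%), against 39% and 29.7% of all genes, with medians of -0.04 and 0.01. The match split was 1 higher and 4 lower on signals as deposited and with median centring. The mismatch split was 3 and 2 in those same settings, and 3 and 4 with scaling to the trimmed mean. The microtubule-associated proteins MAP1B and MAP2 fell with both, MAP1B by 1.17 (adjusted p 8.00e-06) with match and 1.77 (adjusted p 8.75e-08) with mismatch. MAP2 fell by 1.02 with match (adjusted p 0.00163) and by 1.27 with mismatch (adjusted p 0.000335). Its signal was dim, with a median at percentile 36.0 and a lowest of 2.5. The size of its fall depends on the processing. Over the alternatives tried it ran from -2.11 to -0.67 with match and from -3.07 to -0.82 with mismatch. CDK5R1, an activator of the neuronal kinase that phosphorylates neurofilaments, rose by 0.90 with match (adjusted p 9.17e-05) and by 0.78 with mismatch (adjusted p 0.000743).

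Of 20 tested genes for secretory granules and synapses, 3 rose and 3 fell with match (30%), and 5 rose and 4 fell with mismatch (45%), against 39% and 29.7% of all genes, with medians of 0.08 and -0.09. For match the split was 2 and 3 on signals as deposited and with median centring. For mismatch it was 5 and 3 on signals as deposited, 3 and 4 with median centring and 4 and 4 with scaling to the trimmed mean. CPLX2, SYT1 and SNAP25 encode proteins of synaptic vesicle fusion. CPLX2 fell by 2.17 with match (adjusted p 9.74e-12) and fell by 1.42 with mismatch (adjusted p 1.48e-08), SYT1 by 2.06 with match (adjusted p 3.15e-08) and 1.30 with mismatch (adjusted p 2.98e-05), and SNAP25 by 1.83 with match (adjusted p 3.98e-08) and 1.26 with mismatch (adjusted p 1.23e-05). STX1A, another gene of vesicle fusion, fell by 0.50 with mismatch (adjusted p 0.00470), and its difference with match was 0.07 (adjusted p 0.737). CHGB and CHGA, which encode proteins of secretory granules, rose, CHGB by 1.02 with match (adjusted p 9.30e-07) and 0.65 with mismatch (adjusted p 0.000332), and CHGA by 0.66 with match (adjusted p 0.00662) and 0.67 with mismatch (adjusted p 0.00819).

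The X-chromosome neighbours of the BEX genes had called shares no higher than those of all genes against dexamethasone. Of 14 tested BEX, TCEAL, ARMCX and related genes outside the members, 1 rose and 4 fell with match (35.7%) and 3 rose and none fell with mismatch (21.4%), against 39% and 29.7% of all genes, with medians of -0.12 and 0.01. For match the split was 0 higher and 1 lower on signals as deposited, and 0 and 4 with median centring. BEX3 averaged 2940 in match, 3568 in mismatch, 3717 in mifepristone, 3950 in dexamethasone and 3744 in non-treated arrays. It fell by 0.42 with match (SE 0.06, adjusted p 4.06e-06), while its difference with mismatch was -0.15 (adjusted p 0.0637). BEX5 stayed near background, with means of 5.45 in match, 6.64 in mismatch and 8.54 in dexamethasone arrays.

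Match minus mismatch was called for 6 of the 14 (42.9%, against 22.9% of all genes), 1 higher and 5 lower, with a median of -0.14 against -0.02 over all genes. That split was 0 and 4 on signals as deposited and 0 and 5 with median centring. TCEAL3 averaged 227 in match and 346 in mismatch arrays, against 211 in dexamethasone arrays, and its difference of match minus mismatch was -0.57 (SE 0.08, adjusted p 5.04e-05). It rose with mismatch by 0.67 (adjusted p 4.38e-06), and its difference with match was 0.09 (adjusted p 0.442). TCEAL8 rose with mismatch by 0.46 (adjusted p 0.00343). In dexamethasone minus non-treated, mifepristone minus dexamethasone and mifepristone minus non-treated none of the 14 was called, where limma called 6.79%, 5.29% and 0.244% of all genes.

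**Figure D4:**
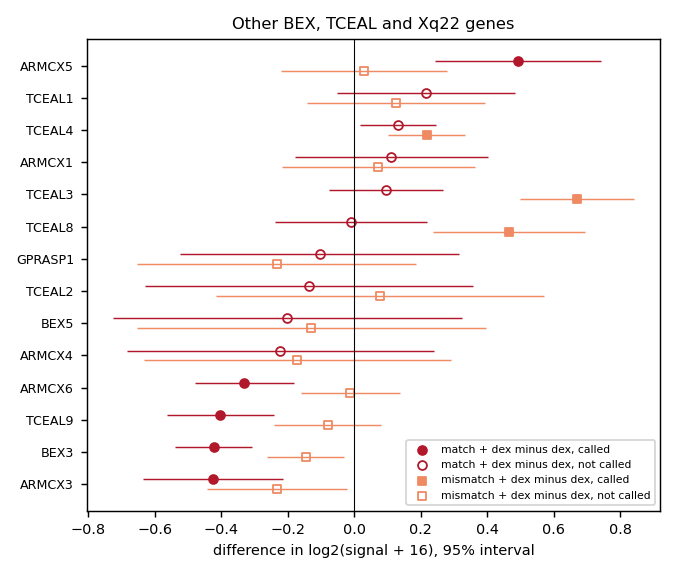
Log2 differences of the BEX, TCEAL, ARMCX and related X-chromosome genes outside the members, for match and mismatch minus dexamethasone, with 95% intervals and filled symbols for called genes. TCEAL3 (0.67) and TCEAL8 (0.46) lie right of 0 with mismatch and near 0 with match, and BEX3 (-0.42) lies left of 0 with match.

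REST is a repressor of neuronal genes in other tissues, and it acts with co-repressors and phosphatases of its own. REST averaged 249 in match and 258 in mismatch arrays, against 202 in dexamethasone arrays, with differences of 0.29 for match (adjusted p 0.216) and 0.35 for mismatch (adjusted p 0.156), so no change of it passed the test. Of 12 tested genes of its complex, 3 rose and 1 fell with match (33.3%) and 2 rose and 1 fell with mismatch (25%), against 39% and 29.7% of all genes, with a median of 0.08 in each. The match split was 1 and 1 on signals as deposited and with median centring. CTDSPL, a small phosphatase recruited by REST, fell by 1.86 with match (adjusted p 7.95e-10) and by 0.80 with mismatch (adjusted p 0.000130). CTDSP1 of the same list went the other way, by 0.31 with match (adjusted p 0.0415) and 0.42 with mismatch (adjusted p 0.00968). HDAC2 rose by 0.27 with match (adjusted p 0.00134) and by 0.44 with mismatch (adjusted p 1.54e-05). With match, neither CTDSP1 nor HDAC2 was called on signals as deposited or with median centring. EHMT2, a histone methyltransferase, rose with match by 0.85 (adjusted p 0.000268).

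DNA methylation and Polycomb silencing keep neuronal and germline genes silent in many tissues. Of the genes linked to these processes, whichever way they act, 12 were tested. With match 6 rose and 1 fell (58.3%), and with mismatch 4 rose and 1 fell (41.7%), against 39% and 29.7% of all genes. The medians were 0.24 and 0.22. The match split depends on the scaling, with 1 and 1 on signals as deposited, 2 and 1 with median centring and 4 and 1 with scaling to the trimmed mean. The mismatch split was 3 and 0 on signals as deposited and 4 and 0 with median centring. DNMT3A, a DNA methyltransferase, rose by 0.83 with match (adjusted p 8.98e-07) and 0.64 with mismatch (adjusted p 4.80e-05), and MBD2, a reader of methylated DNA, fell by 0.50 with match (adjusted p 4.26e-07). Of 10 tested genes of neurotrophin signalling, 3 rose and 2 fell with match (50%) and 3 rose and 3 fell with mismatch (60%), against 39% and 29.7% of all genes, with medians of 0.12 and -0.03. On signals as deposited the split was 2 and 1 for match and 3 and 1 for mismatch. With median centring it was 3 and 2 for mismatch, and with scaling to the trimmed mean 3 and 1 for match. TRAF4, an adaptor protein of receptor signalling, rose by 1.34 with match (adjusted p 1.60e-07) and by 0.92 with mismatch (adjusted p 4.02e-05). The receptor NTRK3 averaged 20.4 in match and 9.27 in mismatch arrays, against 49.7 in dexamethasone arrays, and fell by 0.93 with match (adjusted p 0.00673) and by 1.39 with mismatch (adjusted p 0.000308). NGFR, the p75 receptor that BEX proteins bind, had no tested probe set.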

How the data were processed

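RNA of 15 A549 samples in 5 groups of 3 was hybridized to Affymetrix arrays. The deposited intensity values are MAS5 signals, linear and not logged, per the submitters' processing notes and the values themselves; the sources used here give neither the version nor the scaling. Medians of the deposited arrays ran from 14.8 to 24.5 and 2% trimmed means from 87.2 to 147, so quantile normalization was applied before log2(signal + 16). With 3 arrays per group, their number limits the precision. Control probe sets (62) were left out, and the filter (at least 3 of 15 arrays over the 40th percentile of that array) kept 39778 probe sets (72.8%). limma 3.58.1 in R 4.3.3 was fitted to all 15 arrays with 1 coefficient per group and a variance trend. Residual degrees of freedom were 10 and prior ones 9.36. Benjamini-Hochberg adjustment ran over all probe sets tested, and an adjusted p under 0.05 was a call. The code was tested on simulated data.

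No 2 array columns were identical, and the correlation of arrays was 0.978 to 0.985 inside a group and 0.951 to 0.983 across groups. Probe sets took their symbols from a platform annotation table (41097 with 1 symbol and 1801 with several). A gene is represented by the tested probe set that carries its symbol alone, those not ending in _x_at first, then the brightest. Beside the members, the text names from each list's 4 higher and 4 lower called genes of smallest adjusted p against dexamethasone, and the 4 genes most like each member. REST, NGFR, BEX5 and the match minus mismatch values of list genes were chosen after their values were seen. Members and lists were chosen with earlier results of these data known. Promoter stretches come from the RefSeq table of GRCh38.p14 and were aligned with Biopython 1.88. Only those of the 3 BEX members were read, and none of a neurofilament gene is shown.

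Alternatives were no normalization, median centring, scaling to the trimmed mean, pseudocounts of 1 and 32, no filter and a filter at the 60th percentile, no variance trend, only the arrays of the groups compared, a replicate block, and leaving out each array.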

Additional observations from a re-analysis of the deposited data

How the results depend on the processing

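In all 25 alternatives tried, no member probe set was called for dexamethasone minus non-treated. On signals as deposited, 1 member was called for mifepristone minus dexamethasone and 2 for mifepristone minus non-treated, where the median of all probe sets shifted by 0.35 and 0.363. The median for mismatch minus dexamethasone was 0.143 there. With that setting the genes called were 1 (X-chromosome list), 2 (REST complex), 3 (neurotrophin) and 2 (DNA methylation) for match, and 5 (intermediate filament) and 3 (DNA methylation) for mismatch. KRT18 changed sign for mismatch, with 0.047 (adjusted p 0.821) against -0.12 (adjusted p 0.0174) with quantile normalization. The cause was not tested.

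With median centring the REST complex had 2 and DNA methylation 3 genes called for match. Without the variance trend the intermediate filament list had 5 and the neurotrophin list 3 for mismatch, and with only the arrays of the compared groups DNA methylation had 4 for match. Leaving out each array in turn gave 4 to 7 DNA methylation genes for match (4 without dexamethasone array 1, dexamethasone array 2 or match array 3) and 2 to 6 for mismatch (2 without mismatch array 2). It gave 5 to 9 intermediate filament genes (5 without dexamethasone array 2) and 3 to 6 neurotrophin genes (3 without dexamethasone array 2 or mismatch array 1) for mismatch.

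Equal replicate numbers gave no clear pairing of the arrays, and these values do not settle whether there was one. Same-numbered arrays deviated together at r of -0.0832 to 0.116, over 0.1 in 2 of 30 pairs, and 8 of 15 arrays correlated best with their own number. With the replicate block the members called numbered 0 for mifepristone minus non-treated, and the intermediate filament genes called numbered 11 for match and 7 for mismatch. Of 204 differences of members and named genes, 42 changed sign in at least 1 setting, and of those 1 was called as reported (KRT18 for mismatch) and 0 were called in the setting where the sign changed. NEFM and NEFH signals lay near background, and BEX1 was dim, as was BEX4 outside the mismatch arrays. This limits what can be measured of them.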
